A study of Mus musculus with 6 samples.

Results

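The embryonic and adult globins are the alpha-like and beta-like chains of hemoglobin, and they were followed here together with Ahsp, the chaperone that holds free alpha chains. Members were chosen by gene symbol from the platform table. Of 9 listed genes, 6 had a probe set with their name among 24973, namely Hba-x, Hbb-y, Hbb-bh1, Hbb-bh2, Hbb-bs and Hbb-bt. Of these, 4 passed a filter on brightness (a mean over the arrays of at least 4.52 on the log2 scale, the median of all probe sets) and were among the 12028 genes tested, while Hbb-bs and Hbb-bh2 did not pass. Hba-a1, Hba-a2 and Ahsp are not analysed here, so the alpha-like side rests on Hba-x alone. The samples were 3 arrays of dorsal and 3 of ventral aortic tissue from C57Bl/6 mouse embryos at embryonic day 11.5, with no transgene or treatment named in the labels. Dorsal tissue is what lies above the aortic roof up to the notochord, and ventral tissue is what lies under the vessel. Both were cut by laser from stained cryosections of the same embryos. The arrays of each tissue are labelled as biological replicates 1 to 3. The labels do not say how many embryos or sections went into an array, nor that a number marks an embryo. A pair here means a dorsal and a ventral array of the same number. The labels place the study in the time when the aorta-gonad-mesonephros region produces blood, and the comparison is of the ventral with the dorsal side of the aorta.

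Hemoglobin is built from a pair of alpha-like and a pair of beta-like chains. The first red cells of the mouse embryo, the primitive erythroid cells made in the yolk sac, use the embryonic chains encoded by Hba-x (zeta), Hbb-y (epsilon-y) and Hbb-bh1 (beta-h1) alongside adult alpha chains. The definitive red cells that follow from the fetal liver use adult alpha chains with the adult beta chains of Hbb-bs and Hbb-bt. In the RefSeq gene table of GRCm38.p6, Hba-x lies on chromosome 11, followed by Hba-a1, Hbq1b, Hba-a2 and Hbq1a. Hbb-bt, Hbb-bs, Hbb-bh2, Hbb-bh1 and Hbb-y follow each other on chromosome 7 in rising coordinates. The genes of a cluster arose by duplication and resemble each other, and how probes were divided among them is not given in the sources used here, so signal shared between Hbb-bt and Hbb-bs in particular cannot be separated.

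RefSeq promoter entries were matched by symbol for 7 of the 9 listed genes, 5 of them with a probe set. Hbb-bh1 and Ahsp had no entry. Hbb-bh1, which also had a lower mean level in ventral tissue, is therefore absent from the stretches and the motif counts. The stretches below are shown because Hba-x, Hbb-y, Hbb-bt and Hbb-bs all had lower mean levels in ventral tissue. Each is the 130 bases directly before the annotated start, 5′ to 3′ on the gene's strand. Capitals mark the letters of 4 motifs on either strand: CACCC, the box bound by Klf1-type factors, GATAA, the core read by GATA factors, CCAAT, and TATAA.
Hba-x, chr11:32276470-32276599, plus strand: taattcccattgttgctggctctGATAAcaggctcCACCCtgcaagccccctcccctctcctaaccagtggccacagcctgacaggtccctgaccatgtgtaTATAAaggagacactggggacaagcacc
Hbb-y, chr7:103853208-103853337, minus strand: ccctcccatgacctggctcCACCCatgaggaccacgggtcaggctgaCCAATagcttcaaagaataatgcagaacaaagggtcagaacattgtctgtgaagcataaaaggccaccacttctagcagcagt
Hbb-bt, chr7:103813924-103814053, minus strand: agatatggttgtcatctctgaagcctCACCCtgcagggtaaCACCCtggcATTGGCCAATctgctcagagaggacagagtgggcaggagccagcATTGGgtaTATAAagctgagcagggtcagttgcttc
Hbb-bs, chr7:103827929-103828058, minus strand: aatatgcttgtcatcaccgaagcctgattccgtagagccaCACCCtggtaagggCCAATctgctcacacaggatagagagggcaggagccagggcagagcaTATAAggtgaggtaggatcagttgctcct

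Over the 250 bases before the start, counted on both strands, GATAA was present in 5 of the 5 measured members with an entry and in 22.6% of all 32851 promoters of the table. CACCC was present in 4 of the 5, all except Hbb-bh2, against 52.0% of all promoters. CCAAT was present in 3 of the 5, not in Hba-x or Hbb-bh2, against 33.8%. TATAA was present in 3 of the 5, not in Hbb-y or Hbb-bh2, against 22.8%. In Hbb-bt, CCAAT matches on opposite strands lie directly side by side, and the GATAA matches of Hbb-y, Hbb-bt and Hbb-bs lie before the stretch shown. These are matches of letters and not measured sites.

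The bright globins all had lower mean levels in ventral than in dorsal tissue, with log2 fold changes (ventral minus dorsal) from −0.46 to −0.12, and none passed the test. In limma over all 12028 genes, 0 of the 4 tested members passed an adjusted p of 0.05, beside 0.515% of all genes (62 genes), of which 25 were lower in ventral tissue (0.208%). At an unadjusted p under 0.05 there was 1 member, Hbb-bh1, beside 10.7% of all genes tested. The median log2 fold change was −0.29 over the 4 members and −0.01 over all genes tested. Dorsal and ventral arrays did not overlap, with dorsal higher, for 3 of the 4 members, beside 7.88% of all genes. Precision is limited by having 3 arrays a tissue, and fewer red cells and less globin RNA per red cell cannot be told apart in such bulk tissue.

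Hba-x, the zeta chain of embryonic hemoglobin, stood at 11.58, 11.40 and 11.35 on dorsal arrays 1, 2 and 3 and at 11.07, 11.17 and 11.20 on ventral arrays 1, 2 and 3. Every dorsal array lay above every ventral array, and the ventral array of replicate 1 was the lowest while the dorsal array of that number was the highest. The mean was 11.44 ± 0.12 (SD, n = 3) in dorsal and 11.15 ± 0.07 in ventral tissue. The log2 fold change was −0.29 ± 0.18 (SE; 95% interval −0.72 to 0.14; limma, adjusted p = 0.649), which is 1.22-fold more signal in dorsal tissue with an interval of 0.908 to 1.65.

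Among the beta-like chains of primitive red cells, Hbb-y was the brightest probe set of the family. It read 12.49, 12.35 and 12.42 on the dorsal arrays and 11.96, 12.12 and 12.31 on the ventral arrays. The groups did not overlap, though ventral 3 lay just below dorsal 2 and the difference within pairs ran from −0.52 in replicate 1 to −0.11 in replicate 3. The mean was 12.42 ± 0.07 in dorsal and 12.13 ± 0.17 in ventral tissue, and the log2 fold change was −0.29 ± 0.18 (95% interval −0.73 to 0.15; limma, adjusted p = 0.653).

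Hbb-bh1, the other embryonic beta-like chain, had the greatest difference among the tested members. Its levels were 12.15, 11.96 and 11.81 on the dorsal arrays and 11.51, 11.64 and 11.39 on the ventral arrays. The groups did not overlap, with the lowest dorsal array at 11.81 and the highest ventral array at 11.64. The difference within pairs ran from −0.64 to −0.33. The mean was 11.97 ± 0.17 in dorsal and 11.51 ± 0.12 in ventral tissue. The log2 fold change of −0.46 ± 0.18 had a 95% interval of −0.89 to −0.04 that left out 0, but its adjusted p in limma was 0.424. As a ratio, the dorsal signal was 1.38-fold the ventral, with an interval of 1.03 to 1.85.

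**Figure D1:**
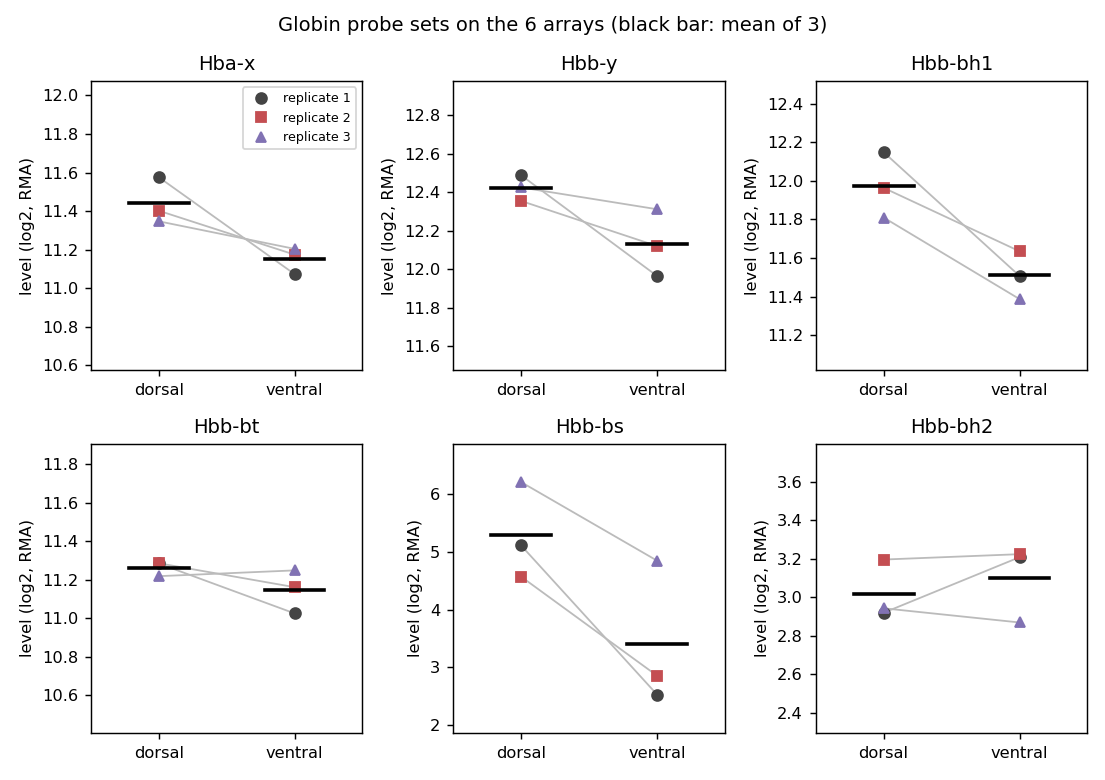
Levels (log2, RMA) of the 6 globin probe sets on each array, dorsal on the left and ventral on the right of each panel, with a grey line joining arrays of the same replicate number and a black bar at the mean of 3. The vertical range is equal in all panels except that of Hbb-bs, where it is wider. Hba-x, Hbb-y and Hbb-bh1 have every dorsal array above every ventral array, and Hbb-bt, Hbb-bs and Hbb-bh2 overlap.

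The adult beta chains gave a bright and a dim probe set. Hbb-bt, the adult beta-t chain, read 11.28, 11.29 and 11.22 on the dorsal arrays and 11.03, 11.16 and 11.25 on the ventral arrays. The groups overlapped, since ventral 3 lay above dorsal 3, and 2 of the 3 pairs were lower in ventral tissue. The mean was 11.26 ± 0.04 in dorsal and 11.14 ± 0.11 in ventral tissue, and the log2 fold change was −0.12 ± 0.17 (95% interval −0.54 to 0.30; limma, adjusted p = 0.885). As a ratio of dorsal to ventral signal that interval ran from 0.811 to 1.45, so a difference in either direction lies within it.

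Hbb-bs, the adult beta-s chain, was dim and variable. It stood at 5.11, 4.57 and 6.20 on the dorsal arrays and at 2.53, 2.86 and 4.85 on the ventral arrays. Replicate 3 was the highest in each tissue, so that ventral 3 lay above dorsal 2 and the groups overlapped, while the differences within pairs were −2.58, −1.71 and −1.36. Means were 5.29 ± 0.83 in dorsal and 3.41 ± 1.25 in ventral tissue. Its mean over the 6 arrays, 4.35, lay under the filter, so it was not tested in the comparison above. In the fit of every named gene without the filter the log2 fold change was −1.88 ± 0.26 (limma, adjusted p = 0.150), and without the filter and the replicate block it was −1.88 ± 0.65 (adjusted p = 0.552). The ventral mean lies among probe sets near background, so this difference gives no exact ratio of transcript.

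Hbb-bh2, a further beta-like gene between the adult and the embryonic ones, read from 2.92 to 3.20 on the dorsal and from 2.87 to 3.22 on the ventral arrays. The groups overlapped fully, 1 of 3 pairs was lower in ventral tissue, and the mean over the 6 arrays was 3.06, well under the filter. Without the filter its log2 fold change was 0.08 ± 0.15 (limma, adjusted p = 0.946).

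Changes within an array can be set side by side for members, although brightness of different probe sets does not measure relative amounts of RNA. From dorsal to ventral tissue Hbb-bh1 changed by −0.38, −0.20 and −0.45 relative to Hbb-bt in replicates 1, 2 and 3, with a mean of −0.35. Hbb-y changed by −0.26, −0.11 and −0.14 relative to Hbb-bt (mean −0.17). Hba-x changed by −0.24, −0.10 and −0.17 (mean −0.17). In each of these 3 comparisons the value relative to Hbb-bt was below 0 in all 3 pairs, a description chosen after the values were seen and not tested. The sign depends on the adult chain used. Hbb-bs, the dim adult chain under the filter, itself changed by −2.58, −1.71 and −1.36. Relative to Hbb-bs, the values of Hbb-bh1, Hbb-y and Hba-x therefore lay above 0 in all 3 pairs. Over the 6 arrays Hba-x correlated with Hbb-bh1 by 0.916 and with Hbb-y by 0.892, and Hbb-y with Hbb-bt by 0.913 and with Hbb-bs by 0.915 (Pearson's r). The lowest r among the 4 bright members was 0.582, between Hbb-bt and Hbb-bh1. These arrays share the tissue difference, so the r values describe these 6 arrays only.

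The bright members lay at the top of the array's scale, where differences between arrays are small. Hbb-y ranked from 1 to 2 in brightness on the dorsal and from 3 to 7 on the ventral arrays, of 24973 probe sets. Hbb-bh1 ranked from 6 to 9 on the dorsal and from 10 to 24 on the ventral arrays. Hba-x ranked from 12 to 25 and from 31 to 40. Hbb-bt ranked from 22 to 30 and from 28 to 42. Among the 38 tested genes with a mean level of 11 or above, a level chosen after the data were seen, the median size of the log2 fold change was 0.07 and 0 passed the test, against 0.18 and 62 over all 12028 genes. In that class the 3 lowest log2 fold changes belonged to Hbb-bh1, Hba-x and Hbb-y, in that order. The next was Ndufb1, a subunit of the respiratory chain, at −0.18, and Hbb-bt was the seventh lowest. The greatest positive value in the class was 0.39, of the imprinted gene Peg3.

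**Figure D2:**
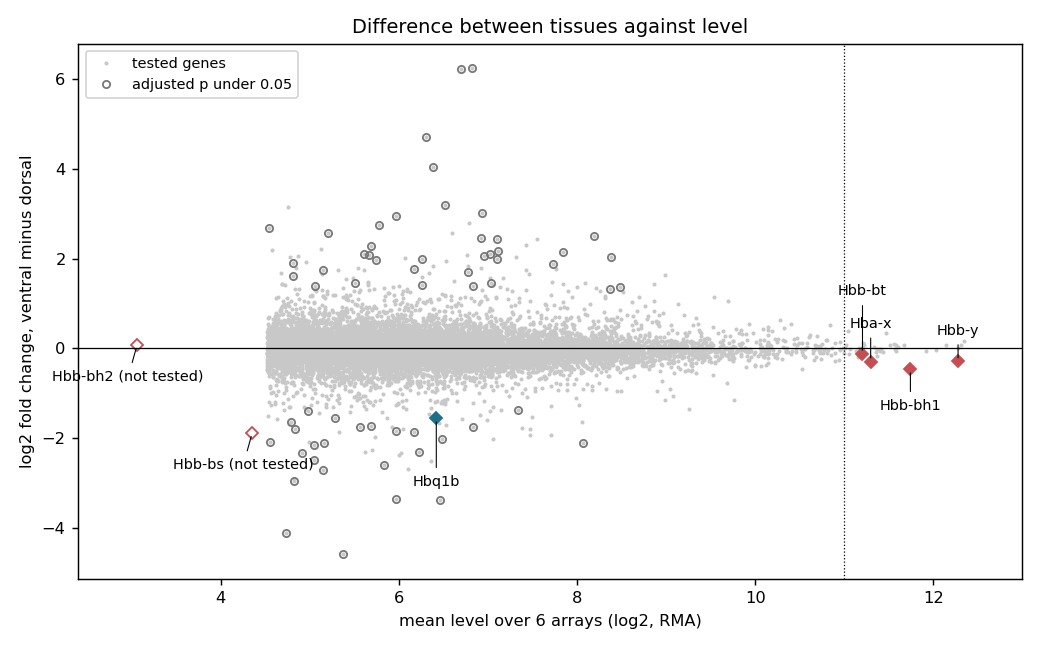
Log2 fold change (ventral minus dorsal) against the mean level over 6 arrays (log2, RMA) for 12028 tested genes in grey, with open circles for the 62 genes past an adjusted p of 0.05. Red diamonds are tested globins, open red diamonds Hbb-bs and Hbb-bh2, which were not tested, the blue diamond Hbq1b, and the dotted line a level of 11. The spread of differences narrows to the right, and Hbb-bh1, Hba-x and Hbb-y lie along its lower edge beyond the dotted line.

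Of other genes of the globin fold, Hbq1b and Ngb were tested and neither passed. Hbq1b, a theta-type gene that lies between Hba-a1 and Hba-a2, stood at 7.38, 7.17 and 7.04 on the dorsal arrays and at 4.98, 6.32 and 5.62 on the ventral arrays. Every dorsal array was higher than every ventral array, and the ventral arrays were the more spread out. The log2 fold change was −1.56 ± 0.30 (95% interval −2.29 to −0.83; limma, adjusted p = 0.119), or 2.94-fold more signal in dorsal tissue. Its near copy Hbq1a, the neuronal Ngb, the muscle gene Mb and Cygb had mean levels of 3.60 to 4.57, and Ngb differed by 0.01 ± 0.23 (adjusted p = 0.992). Of 10 tested genes, outside the members, whose levels most resembled the mean of the 4 bright globins over the 6 arrays, the closest were Tox, Mospd3, Slco3a1, Gpsm1 and Thada, with r of at least 0.984. The remaining 5 were Camk2a, U2af1l4, Ccnc, Map3k5 and Tyw3 (r of at least 0.980). With 6 arrays and 12028 genes many high values of r arise. No erythroid gene of the lists below was among these 10, though r reached 0.974 among late erythroblast and 0.972 among erythroid transcription genes. The median r was 0.62 for heme synthesis, 0.68 for red cell membrane, 0.54 for erythroid transcription and 0.71 for late erythroblast genes. It was −0.08 for iron and erythropoietin genes and 0.04 over all genes tested. For the sclerotome markers named further below it was 0.915, above every erythroid list. These r values include the difference between the tissues. With each tissue's mean subtracted, the medians were 0.455 for heme synthesis, 0.223 for red cell membrane and −0.0218 for erythroid transcription genes. They were 0.377 for late erythroblast genes, 0.12 for iron and erythropoietin genes, 0.348 for sclerotome markers and 0.0296 over all genes tested.

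The genes that serve the globins in red cells lay mostly on the same side. In 5 lists of heme synthesis, red cell membrane, erythroid transcription, iron and erythropoietin, and late erythroblast genes, 43 of 61 tested genes were lower and 18 higher in ventral tissue, beside 52.3% lower among all genes tested, with a median log2 fold change of −0.27. In limma 0 of the 61 passed, beside 0.515% of all genes, and 19 had an unadjusted p under 0.05, beside 10.7%. Of the 61, 17 had every dorsal array above every ventral array, beside 7.88% of all genes, and 4 the reverse, beside 7.50%. These counts describe the lists and are not a test of them. Leaving out replicate 1 brought the median nearer to 0, to −0.18 for the 4 bright globins, −0.36 for red cell membrane and −0.08 for heme synthesis genes, while leaving out replicate 3 brought that of late erythroblast genes to −0.58.

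Heme, which each globin chain binds, is made by the enzymes of the heme synthesis list, and 9 of its 11 tested genes were lower in ventral tissue with a median of −0.32. Alas2, the erythroid enzyme of the first step, read 7.24, 6.94 and 6.98 on the dorsal and 5.64, 6.56 and 6.17 on the ventral arrays. Its groups did not overlap, and the log2 fold change was −0.93 ± 0.26 (limma, adjusted p = 0.264). Tmem14c, which helps move porphyrin into the mitochondrion, had −0.89 ± 0.26. The highest values in the list were those of Ppox (0.22 ± 0.22) and Alas1 (0.16 ± 0.21), the latter being the form of the first enzyme used outside red cells. Slc25a37, the mitochondrial iron importer of erythroblasts, had −0.60 ± 0.17, the lowest of 10 tested genes of iron uptake and erythropoietin signalling. In that list 5 genes were lower and 5 higher, with a median of 0.04, and the transferrin receptor Tfrc differed by −0.04 ± 0.22. Epor, the erythropoietin receptor, had −0.24 ± 0.18, while Slc11a2 (0.27 ± 0.20) and the iron exporter Slc40a1 (0.65 ± 0.47) were the highest.

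Of 12 tested red cell membrane genes 9 were lower in ventral tissue, with a median of −0.53. Icam4, an adhesion protein of erythroblasts, had the lowest log2 fold change (−1.16 ± 0.19; limma, adjusted p = 0.0848), and the anion exchanger Slc4a1 had −0.82 ± 0.28. Gypc (0.69 ± 0.20) and the water channel Aqp1 (0.08 ± 0.18) were the highest. Both are also made outside red cells. Whether expression outside red cells bears on their values, or on those of any other gene of these lists, was not tested. Of 12 tested late erythroblast genes 10 were lower, with a median of −0.34. Hemgn, a nuclear protein of erythroid cells, read 7.86, 7.80 and 7.29 on the dorsal and 5.58, 6.56 and 6.38 on the ventral arrays, with no overlap and a log2 fold change of −1.48 ± 0.28 (adjusted p = 0.118). Car2, a carbonic anhydrase, had −1.37 ± 0.25 (adjusted p = 0.106). It passed with replicate number as a random block (0.0486) and without replicate 2 (0.0469), and its adjusted p ran from 0.0469 to 0.242 over the alternatives. Bnip3l (0.50 ± 0.19), which clears mitochondria from maturing red cells, and the catalase gene Cat (0.24 ± 0.22) were the highest.

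**Figure D3:**
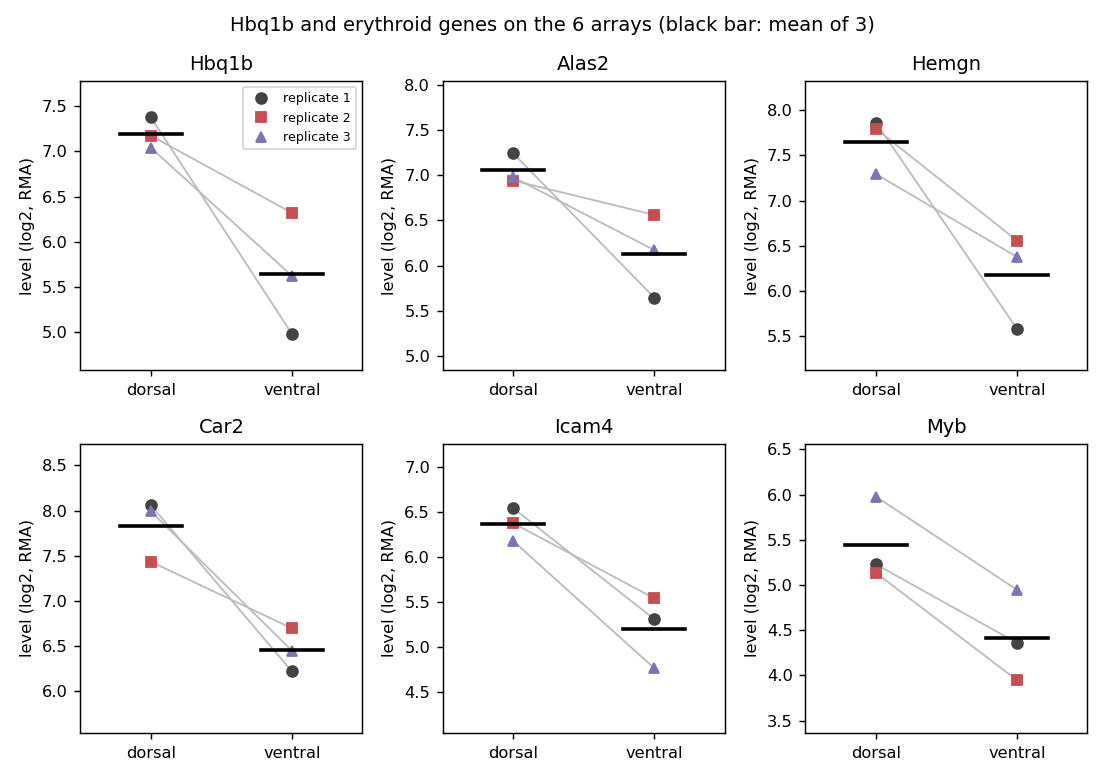
Levels (log2, RMA) of Hbq1b and 5 erythroid genes on each array, dorsal on the left and ventral on the right, with a grey line joining arrays of the same replicate number and a black bar at the mean of 3. The vertical range is equal in all panels. Each of the 6 genes has every dorsal array above every ventral array, and none passed an adjusted p of 0.05 over all genes tested. The 5 erythroid genes were picked from 61 tested and do not stand for the rest. Of the 61, 17 had this pattern, beside 7.88% of all genes, and 4 had the reverse, beside 7.50%.

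Factors that switch globin genes on and between their forms were mixed, with 10 of 16 lower in ventral tissue and a median of −0.21. A stricter filter that kept brighter genes only left 2 of the 16, Ldb1 (0.12) and Klf3 (0.36), with a median of 0.24. Klf1, which activates adult beta-globin genes through CACCC boxes, had −0.61 ± 0.18 (limma, adjusted p = 0.293), and Gata1, the central erythroid GATA factor, had −0.51 ± 0.21 (0.458). Sox6, which silences embryonic globins and also acts in cartilage, had the lowest value (−1.23 ± 0.25; adjusted p = 0.134), followed by Myb, a factor of definitive progenitors (−1.03 ± 0.18; 0.0873). Bcl11a, another repressor of embryonic globins, chosen after its values were seen, had −0.33 ± 0.18 (0.596). Zfpm1, the cofactor of Gata1 (0.64 ± 0.24), and Lmo2 (0.44 ± 0.18) were the highest. Among genes that clear hemoglobin and heme, 4 of 8 were tested and none passed. Blvrb (−0.50 ± 0.18) was the lowest of them, followed by Lrp1, a receptor for hemopexin with bound heme (0.08 ± 0.17). The heme oxygenase Hmox1 had 0.38 ± 0.26 and Blvra 0.14 ± 0.21.

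**Figure D4:**
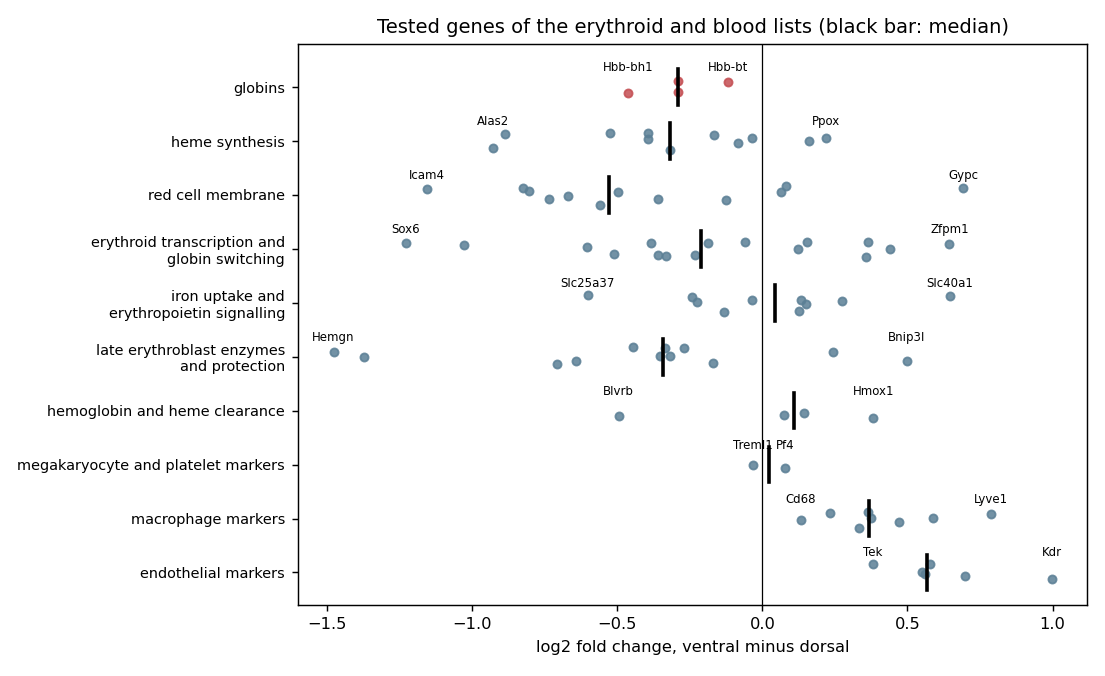
Log2 fold change (ventral minus dorsal) of each tested gene in 10 lists, with a black bar at each list's median and the lowest and highest gene named. The globins and the heme synthesis, red cell membrane and late erythroblast lists have medians from −0.53 to −0.29. Medians are −0.21 for erythroid transcription, 0.04 for iron and erythropoietin, 0.11 for clearance and 0.02 for megakaryocyte genes. The macrophage and endothelial lists have medians of 0.37 and 0.57 over all 6 arrays. With arrays left out these move to between 0.16 and 0.61 and to as low as 0.35, and that of heme synthesis to −0.08.

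Markers of red cells and of other cells in and around the vessel were read beside the globins. Of 10 erythroid markers, all of them also on the lists above, 8 had a probe set and 7 were tested, all lower in ventral tissue with a median of −0.67, and the mean level of the 8 was 6.01 to 6.16 on dorsal and 5.23 to 5.55 on ventral arrays. Rhag lay under the filter. All 6 tested endothelial markers of 7 were higher in ventral tissue (median 0.57; mean level of the list 5.46 to 6.09 on dorsal and 6.01 to 6.57 on ventral arrays), led by the receptor Kdr (1.00 ± 0.20; limma, adjusted p = 0.121) and Cldn5 (0.70), with Tek (0.38) and Cdh5 (0.55) lowest. Without replicate 3 the endothelial median was 0.35. All 8 macrophage markers were higher as well (median 0.37; 5.30 to 5.88 on dorsal and 5.88 to 6.11 on ventral arrays), led by Lyve1 (0.79 ± 0.17; adjusted p = 0.158) and Adgre1 (0.59), with Cd68 (0.13) and Cx3cr1 (0.23) lowest and the receptor Csf1r at 0.36. The macrophage median was 0.61 without replicate 2 and, with no block, 0.57 without dorsal 2 and 0.16 without dorsal 3. Of 7 megakaryocyte and platelet markers with a probe set only Pf4 and Treml1 were tested, with 0.08 and −0.03, and the list's mean level was 4.37 to 5.02 on dorsal and 4.18 to 5.14 on ventral arrays. Of 7 other leukocyte markers 3 were tested (Prtn3 0.55, Mpo 0.03 and S100a8 −0.39), and Ptprc, the common leukocyte antigen, lay under the filter. None of these marker genes passed the test, and their part in the globin difference was not tested.

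Most markers listed for dorsal or ventral tissue were higher in that tissue. The lists were chosen with earlier results of these data known, so this is no independent check of the tissues. The sclerotome factor Pax1 (log2 fold change −2.60 ± 0.24; limma, adjusted p = 0.0183) and the cartilage collagen Col2a1 (−1.75 ± 0.19; 0.0258) were higher in dorsal tissue. All 5 sclerotome markers had every dorsal array above every ventral array, beside 7.88% of all genes tested. Among them were Pax9 (−2.69 ± 0.51; limma, adjusted p = 0.118) and Sox9 (−0.89 ± 0.21; 0.185), which did not pass. Gata6 (3.19 ± 0.19; limma, adjusted p = 0.00336), Tcf21 (4.70 ± 0.29; 0.00347) and Hlx (2.00 ± 0.19; 0.0183) were higher in ventral tissue. Of 6 ventral markers 5 had every ventral array above every dorsal array, beside 7.50% of all genes tested. Wt1 had a log2 fold change of 1.29, and Foxf1 alone was lower in ventral tissue (−1.71 ± 0.72; limma, adjusted p = 0.468). The 5 calls of Pax1, Col2a1, Gata6, Tcf21 and Hlx depend on settings. Without the filter Pax1 (limma, adjusted p = 0.0756), Col2a1 (0.0816) and Hlx (0.0647) did not pass, and without the filter and the block Tcf21 did not (0.0522). Col2a1 also did not pass without replicate 1 (limma, adjusted p = 0.0513) or 2 (0.0557). With 1 array left out and no block, Gata6 did not pass without dorsal 1 or 2 or ventral 2 or 3 (limma, adjusted p from 0.0523 to 0.09), and Tcf21 did not without dorsal 1 or 3 or ventral 2 or 3 (0.0688 to 0.117). Hlx did not pass without dorsal 1 or ventral 2 or 3 (limma, adjusted p from 0.0519 to 0.086), and Col2a1 did not without dorsal 1 (0.0519) or ventral 2 (0.0577). All 5 kept their direction under these settings.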

How the data were processed

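RNA was amplified from picogram amounts, biotin labelled and hybridised to Affymetrix arrays, per the labels' protocols. The deposited values are log2 levels. Affymetrix Expression Console and RMA (background correction, quantile normalization, probe summary) are named in the submitters' processing notes, with no version, and how probes were grouped, or on which build, is not given in the sources used here. Array medians were 4.49 to 4.55. Of 24973 probe sets, 24015 had 1 gene symbol, 0 several, and 958 are unnamed here.

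Ventral minus dorsal was tested with limma 3.58.1 in R 4.3.3 (lmFit, eBayes with no trend, two-sided, Benjamini-Hochberg over 12028 genes, replicate number as a fixed block, 6.41 degrees of freedom), after checks on simulated data. SE and 95% intervals are those of the moderated fit. The block follows the labels, by which both tissues came from the same embryos, though they do not say that a number marks an embryo. The correlation of same-numbered arrays, as deviations from tissue means over tested genes, was 0.0992, 0.0763 and 0.226. Between arrays of different number it ran from −0.153 to 0.0805, the highest for dorsal 2 with ventral 1. The random block had a consensus correlation of 0.0557. If arrays pool embryos, p-values measure the spread between pools. Where a tissue's mean lies under the filter, a fold is that of deposited values only.

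Members and gene lists were chosen with earlier results of these data known. Of the tested genes of each list the text names those past the threshold, the 2 highest, the 2 lowest and the leading marker, and of look-alike genes the 10 with the highest r, with no predicted genes, clone names or small RNAs. Alternatives were no or a random block, no or a stricter filter, median shift, cyclic loess, a trend, and leaving out each number or array. Promoters come from RefSeq (GRCm38.p6).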

Additional observations from a re-analysis of the deposited data

How the results depend on the processing

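The log2 fold changes of Hba-x, Hbb-y, Hbb-bh1 and Hbb-bt stayed below 0 and short of the threshold under all 17 alternatives, from −0.36 to −0.19, −0.38 to −0.17, −0.55 to −0.38 and −0.19 to −0.05 in that order. The lowest adjusted p among them was 0.0931, for Hbb-bh1 with a trend of variance on level. Counts over all genes moved more than these values: 59 genes passed without the replicate block, where no globin passed either, 94 with a trend, 10 without the filter, 65 with a random block, and from 48 to 75 when a replicate number was left out. With 1 array left out and no block, 12, 23 and 40 genes passed without dorsal 1, 2 and 3, and 104, 13 and 18 without ventral 1, 2 and 3. Of the erythroid and blood genes 1 passed with the random block, and 0 to 1 when an array or number was left out, Car2 each time. Dropping the block changed the call of no globin or erythroid gene. Without the filter and the block, added after seeing the data for Hbb-bs, its SE rose from 0.26 to 0.65. With 3 arrays a tissue, a globin difference of the size seen here could be missed. Whether levels near the top of the scale had a part in this was not tested. The cause of the differences between settings was not tested.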
